A study of Mus musculus with 9 samples.

Results

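RNA outside cells was examined in ascites of the mouse ID8-Def29/Vegf ovarian cancer model. It was read from barcodes of a droplet library with fewer molecules than those taken as cells, and "outside cells" stands for these barcodes throughout. The number of molecules alone does not show that no such barcode held a cell or part of one. Haemoglobin reached 78.2% of the molecules in 1 of them. A barcode marks 1 droplet, and a unique molecular identifier (UMI) marks 1 captured RNA molecule. Low-count barcodes were all those with 100 to 200 UMIs, and they numbered 58272 of the 258534 barcodes with at least 1 UMI, or 22.5%. They held 7829300 UMIs, 21.9% of the 35733776 UMIs in the library. They were set against 6442 barcodes taken as cells, which passed a minimum of 500 UMIs and 200 genes and a maximum of 15% mitochondrial UMIs, and which held 24818206 UMIs. A low-count barcode had a median of 134 UMIs and 106 genes, and a cell a median of 3300 UMIs and 1144.5 genes. UMIs were summed over each pool and are given as CPM, the count scaled to a common pool size of 1e6 UMIs.

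The library was made by 10x Genomics droplet sequencing from the cell infiltrate of ascites, a fluid of the peritoneal cavity, with the genotype given as B6_WT and no treatment named. The labels do not say how many animals were pooled, and the tumour line was changed to make a beta-defensin and Vegf. The series also has bulk RNA libraries of deferiprone-treated and vehicle-treated ID8-Def29/Vegf cultures, which were not used here. There was 1 library, so no barcode could be shared with another, no difference has a replicate check and no p-value is given. The 95% intervals cover counting error only.

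A droplet without a cell still captures RNA dissolved in the suspension. Such RNA can come from cells that broke open in the animal or during handling, which frees the transcripts of the cytoplasm. Nuclear transcripts such as Malat1 stay in the nucleus, and transcripts of the mitochondrial genome stay inside the organelle, unless those compartments break too. Which of these origins the RNA described here had was not tested, and RNA of the ascites fluid and RNA freed in handling cannot be told apart.

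The low-count barcodes formed 1 narrow population. In bins of 10 UMIs, the largest number of barcodes lay at 130 to 139 UMIs, with 15711 barcodes, and smaller peaks lay at 50 to 59 UMIs, with 1616, and at 270 to 279 UMIs, with 516. At the edges of the range, 120 barcodes had exactly 100 UMIs and 20 had exactly 200 UMIs, against 139 with 99 UMIs and 27 with 1 UMI above the range. These counts are what chose the barcodes and are not a result.

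**Figure D1:**
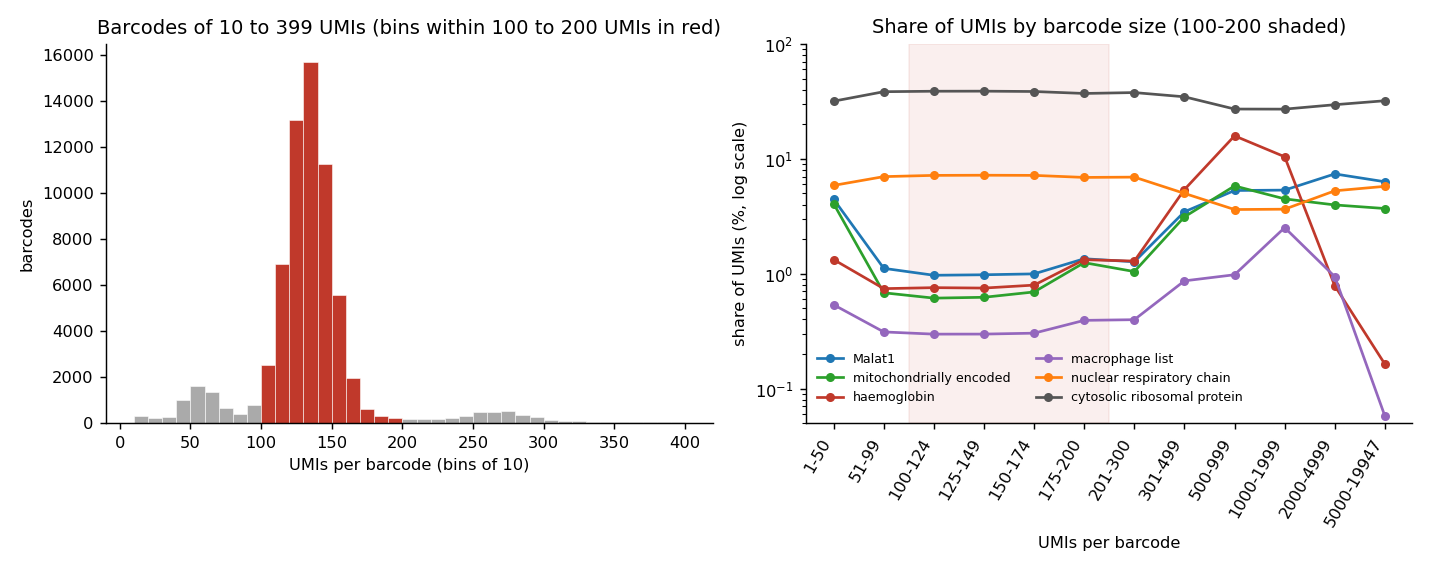
Left, the number of barcodes by UMIs per barcode in bins of 10, with the bins within 100 to 200 UMIs in red; right, the share of UMIs (%, log scale) held by Malat1 and by 5 gene groups against barcode size, with 100 to 200 UMIs shaded. The largest peak holds 15711 barcodes at 130 to 139 UMIs, and Malat1 and mitochondrially encoded transcripts sit at 1.35% or less across the shaded range. Points from 500 UMIs upward are all barcodes of that size, before the gene and mitochondrial limits.

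Most genes varied between these barcodes little more than draws from a single mixture would, by a measure that is weak for genes of low level. For each of 1637 genes at 50 CPM or more, the variation between barcodes was divided by the variation that sampling from the summed profile gives, so that 1 means no extra variation. The median of this dispersion was 1.01, and 1626 genes, or 99.3%, lay between 0.9 and 1.1. The summed cytosolic ribosomal proteins had 1.06 and the summed macrophage list 1.1. The haemoglobin sum reached 2.37, the mitochondrially encoded sum 1.91 and the sum of the neutrophil list 1.55. The sum of nuclear-retained long noncoding RNAs had 1.33 and that of the platelet list 1.24. Malat1 alone had 1.32, with up to 69 UMIs in 1 barcode. Part of the haemoglobin and mitochondrial UMIs lay in few barcodes. In all, 57 barcodes with 10 or more haemoglobin UMIs held 3.01% of the haemoglobin UMIs, and 125 barcodes over 5% mitochondrial held 4.10% of the mitochondrial UMIs. By this measure the ribosomal protein sum, at a mean of 52.1 UMIs per barcode, was spread nearly like a shared pool. Haemoglobin, mitochondrial and Malat1 transcripts were less so, and their 95% intervals do not include this extra variation. For genes of low level the measure cannot tell a shared pool from an uneven spread, since it stays near 1 at few UMIs per barcode. Slc39a1, at 103 CPM, differed 14.4-fold between barcodes by their bases, as described further on, yet its dispersion was at most 1.06.

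The composition was much the same in barcodes of 100 to under 175 UMIs and differed in the few above them. In the first 3 steps of 25 UMIs from 100 upward, Malat1 took 0.969%, 0.979% and 0.996% of UMIs, mitochondrially encoded transcripts 0.613%, 0.623% and 0.693%, and ribosomal protein transcripts 38.8%, 38.8% and 38.6%. In the 788 barcodes of 175 to 200 UMIs the first of these groups took 1.35%, the second 1.25% and the last 37.1%. Haemoglobin took 1.32% in those barcodes, against 0.756% in the first step, and the dendritic cell list 0.184%, against 0.0825%. The 183846 barcodes of 1 to 50 UMIs differed from all of these, with 4.45% Malat1, 4.06% mitochondrially encoded and 31.8% ribosomal protein UMIs.

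Across genes, far more transcripts took a lower share of UMIs outside cells than a higher one. CPM are shares of a fixed total, so levels called lower or depleted are relative. Ribosomal protein transcripts took 38.7% of UMIs in low-count barcodes and 31.6% in cells, which leaves a smaller share for other genes. Of 5763 genes whose mean over both pools was at least 10 CPM, 26 were at least 2-fold higher in low-count barcodes than in cells, which is 0.451%, and 1050 were at least 2-fold lower, which is 18.2%. The median log2 ratio of low-count barcodes over cells was -0.34, with 80% of genes between -1.29 and 0.41. A ratio above 1 was found for 1733 genes, or 30.1%. At a mean of 50 CPM or more, 7 of 1829 genes (0.383%) were at least 2-fold higher and 189 (10.3%) at least 2-fold lower.

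**Figure D2:**
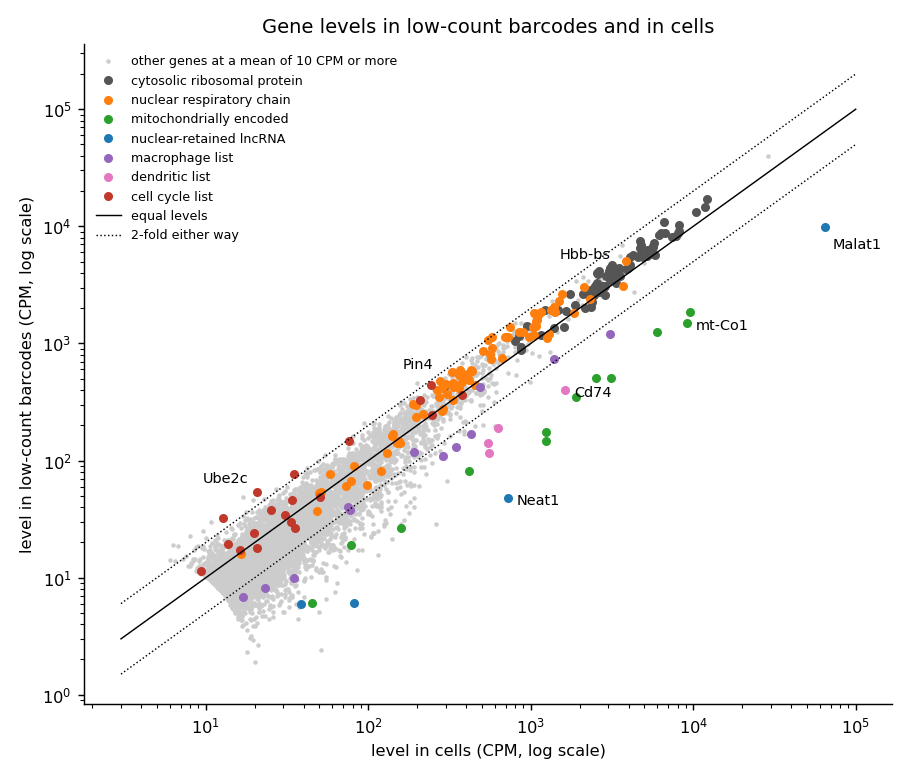
Level of each gene in low-count barcodes (vertical axis) against its level in cells (horizontal axis), both in CPM on log scales, for genes with a mean of at least 10 CPM, with 7 gene lists coloured. Ribosomal protein and nuclear respiratory chain genes lie along or just above the line of equal levels, and Malat1, Neat1 and the mitochondrially encoded genes lie far under the lower 2-fold line.

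Nuclear-retained long noncoding RNAs were the most depleted group. All 4 of the members at 10 CPM or more were at least 2-fold lower outside cells, against 18.2% of all genes, with a median log2 ratio of -3.23. The list had 10 names, 8 of them in the matrix. Malat1, which is held in nuclear speckles, had 9861 CPM (9791 to 9931) in low-count barcodes and 64755 CPM (64655 to 64855) in cells, a ratio of 0.152 (0.151 to 0.153). Neat1, the scaffold of nuclear paraspeckles, had 48.3 CPM in low-count barcodes and 724 CPM in cells, a ratio of 0.0667 (0.0601 to 0.0739), the lowest of all genes with a mean of at least 50 CPM. Both lay below the range that held the middle 80% of genes. Kcnq1ot1, an antisense RNA that silences imprinted genes in the nucleus, had 6.13 CPM in low-count barcodes and 81.8 CPM in cells, a ratio of 0.0750 (0.0551 to 0.0998). Xist, which coats the inactive X chromosome, had 6.0 CPM and 38.2 CPM in low-count barcodes and in cells, a ratio of 0.157 (0.115 to 0.210). Its level differed between the 2 kinds of cell described further on, with 272 CPM in the macrophage gate and 3.08 CPM in the epithelial gate. For Xist, nuclear retention and cell of origin cannot be told apart. As a group the nuclear-retained RNAs took 0.992% of UMIs in low-count barcodes and 6.56% in cells.

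Noncoding RNAs outside this list differed among themselves. The 4 small nucleolar RNA host genes at 10 CPM or more, whose spliced transcripts reach the cytoplasm, had ratios above 1, with a median log2 of 0.26 and none past 2-fold. Their list had 14 names, only 4 of them in the matrix. Snhg18 had 1851 CPM in low-count barcodes and 1132 CPM in cells, a ratio of 1.63 (1.60 to 1.67). Lockd, a polyadenylated noncoding RNA transcribed next to Cdkn1b, was among the most enriched transcripts, with 210 CPM in low-count barcodes and 93.4 CPM in cells, a ratio of 2.25 (2.11 to 2.40). Gm42418 and AY036118, which overlap ribosomal RNA genes and whose counts may come from ribosomal RNA, had ratios of 1.80 (1.72 to 1.89) and 1.29 (1.17 to 1.43). Gm20186, a noncoding RNA of 741 bases, was among the most depleted, with 17.2 CPM in low-count barcodes and 90.8 CPM in cells, a ratio of 0.190 (0.158 to 0.226).

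Transcripts of the mitochondrial genome were depleted to a like degree. All 12 of 13 members that reached 10 CPM were at least 2-fold lower, against 18.2% of all genes. Their log2 ratios lay between -3.09 and -2.02, with a median of -2.51. Together they took 0.644% of UMIs in low-count barcodes and 3.53% in cells, a ratio of 0.182 (0.181 to 0.184). mt-Atp6, a subunit of the ATP synthase, had 1868 CPM in low-count barcodes and 9524 CPM in cells, and mt-Co1, of cytochrome c oxidase, had 1505 CPM in low-count barcodes and 9087 CPM in cells. Their ratios were 0.196 (0.193 to 0.199) and 0.166 (0.163 to 0.169). Genes of complex I spanned most of the range, with mt-Nd2 at 146 CPM in low-count barcodes and 1244 CPM in cells (ratio 0.117) and mt-Nd1 at 507 CPM in low-count barcodes and 2519 CPM in cells (ratio 0.201). mt-Atp8, another ATP synthase subunit, had the ratio closest to 1, at 0.246 (0.207 to 0.291). No mitochondrial UMI was found in 45.2% of low-count barcodes. The limit of 15% mitochondrial UMIs was part of how cells were chosen. Without it the log2 ratio of the summed group was -2.64, against -2.45 with it.

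The nuclear-encoded partners of the same complexes went the other way. Transcripts for 78 nuclear-encoded respiratory chain and ATP synthase subunits, which are translated in the cytosol, took 7.19% of UMIs in low-count barcodes and 5.42% in cells, a ratio of 1.33 (1.32 to 1.33). None passed 2-fold in either direction, 60 had ratios above 1, and the median log2 ratio was 0.40. Cox6c and Cox7c, of cytochrome c oxidase, had ratios of 1.31 and 1.41. Cox6c stood at 5041 CPM in low-count barcodes and 3849 CPM in cells. Atp5k and Ndufa5, small subunits of the ATP synthase and of complex I, were among the 15 most enriched genes, with ratios of 1.97 (1.92 to 2.02) and 1.95 (1.90 to 2.01). Atp5k had 1131 CPM in low-count barcodes and 574 CPM in cells. Cox8a, at 3121 CPM in low-count barcodes and 3681 CPM in cells, had a ratio of 0.848 (0.836 to 0.860). Within cytochrome c oxidase, the mitochondrially encoded subunits mt-Co1, mt-Co2 and mt-Co3 had ratios of 0.166, 0.162 and 0.209, and the nuclear-encoded subunits named here had ratios of 0.848 to 1.41.

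Ribosomal protein transcripts made up the largest part of the RNA outside cells. The 82 cytosolic ribosomal protein genes took 38.7% of UMIs (38.7 to 38.8%) in low-count barcodes and 31.6% in cells, a ratio of 1.23 (1.22 to 1.23). All 82 stayed within 2-fold, 73 had ratios above 1, and the median log2 ratio was 0.26. Rpl41, the smallest ribosomal protein, had 17226 CPM in low-count barcodes and 12111 CPM in cells, a ratio of 1.42 (1.41 to 1.43). Rpl37, Rpl37a and Rps28 had ratios of 1.23, 1.28 and 1.24. Among the 24 translation factors the median log2 ratio was 0.13, none passed 2-fold, Naca, which binds nascent chains, stood at 1.49 (1.46 to 1.52) and Eef1a1, the elongation factor that delivers transfer RNA, at 0.967 (0.95 to 0.985). Ribosomal protein genes have many processed pseudogenes, and how the authors' counting shared reads among them is not known here.

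**Figure D3:**
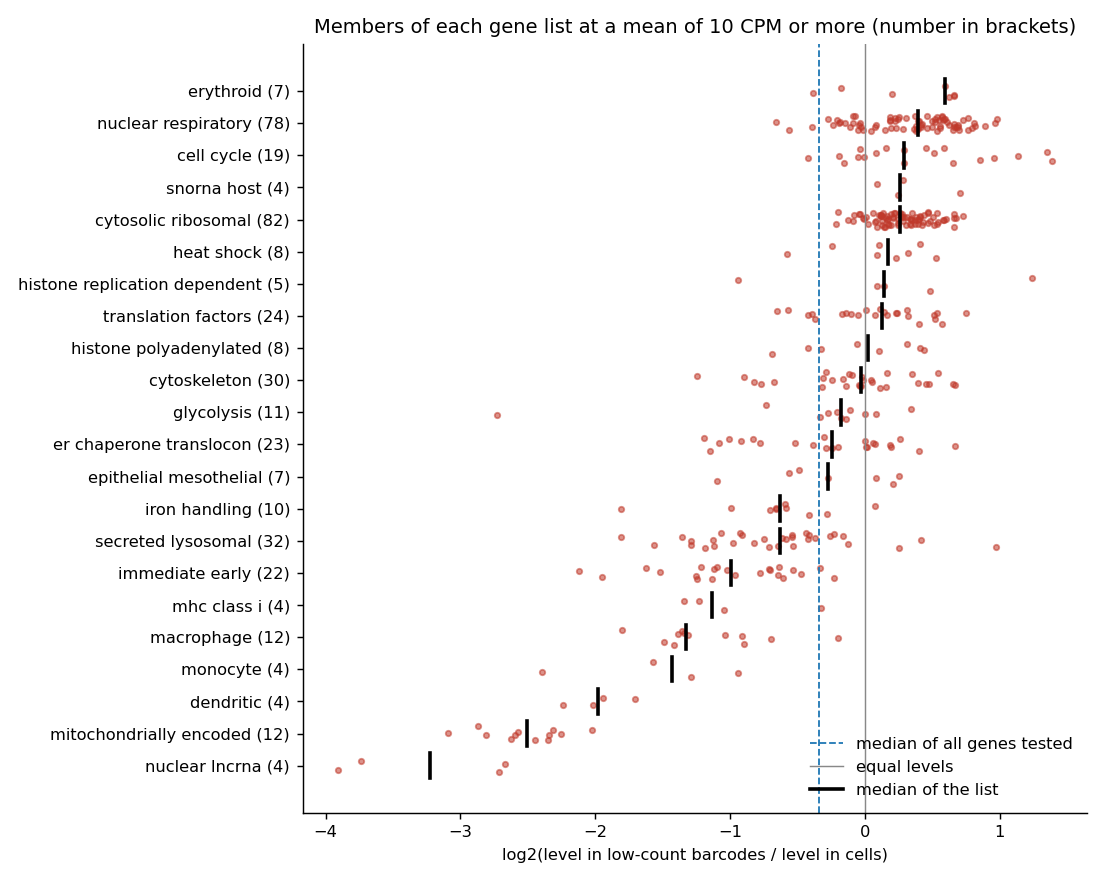
Each point is a member of a gene list with a mean of at least 10 CPM, placed by the log2 ratio of its level in low-count barcodes over its level in cells; black bars are list medians, the dashed line is the median of all genes tested (-0.34) and the grey line marks equal levels. Lists run from nuclear lncRNA (median -3.23) and mitochondrially encoded genes (-2.51) at the bottom to erythroid genes (0.59) at the top.

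Cell cycle transcripts were among those over-represented outside cells. Of 25 listed genes 19 reached 10 CPM, 3 of them were at least 2-fold higher, against 0.451% of all genes, and none was at least 2-fold lower. The median log2 ratio was 0.29. Stmn1, a tubulin-binding protein of dividing cells, had 442 CPM in low-count barcodes and 244 CPM in cells, a ratio of 1.81 (1.73 to 1.89), and Hmgb2, a chromatin protein, had 327 and 208 CPM in low-count barcodes and in cells, a ratio of 1.57 (1.5 to 1.65). The 3 genes past 2-fold were Ube2c, a ubiquitin-conjugating enzyme of mitotic exit, Cdk1, the mitotic kinase, and Birc5, a subunit of the chromosomal passenger complex. Ube2c had 54.0 CPM in low-count barcodes and 20.7 CPM in cells, a ratio of 2.61 (2.29 to 2.98). Cdk1 had 32.3 CPM and 12.7 CPM in low-count barcodes and in cells, a ratio of 2.55 (2.15 to 3.01), and Birc5 had 76.1 and 34.6 CPM, a ratio of 2.20 (1.98 to 2.44). Other members did not share this, with Tubb5, a beta-tubulin, at 0.975 (0.935 to 1.02) and Top2a, the mitotic topoisomerase, at 0.747 (0.639 to 0.869). Ube2c, Cdk1 and Top2a were named after their values were seen.

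The 15 most enriched genes with a mean of at least 50 CPM were of several kinds. Pin4, a peptidyl-prolyl isomerase, led them with 455 CPM (440 to 470) in low-count barcodes and 200 CPM (195 to 206) in cells, a ratio of 2.27 (2.17 to 2.37). Pfdn4, a subunit of the prefoldin chaperone, stood at 2.08 (1.89 to 2.30), Fcf1, a ribosomal RNA processing factor, at 2.06 (1.88 to 2.24), Gng13, a G protein gamma subunit, at 2.02 (1.84 to 2.21), and Magoh, of the exon junction complex, at 2.01 (1.87 to 2.16). Wfdc18, which encodes a small secreted protein, had 314 CPM in low-count barcodes and 160 CPM in cells, a ratio of 1.96 (1.87 to 2.06). The rest were Cks2, a cyclin-dependent kinase partner, Cetn3, a centrin, Hddc2, Psma6, a proteasome subunit, and Snrpd1, a core protein of the spliceosome, at ratios from 1.94 down to 1.90.

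The 15 most depleted genes held 7 mitochondrially encoded genes, Malat1, Neat1 and the noncoding Gm20186. Of the others, Chka, choline kinase alpha, had 28.9 CPM (25.2 to 32.9) in low-count barcodes and 262 CPM (255 to 268) in cells, a ratio of 0.110 (0.0962 to 0.126). Hmcn1, a very large extracellular matrix protein, stood at 0.137 (0.114 to 0.165), Hk2, hexokinase 2, at 0.151 (0.128 to 0.176), Gpcpd1, a glycerophosphocholine phosphodiesterase, at 0.181 (0.158 to 0.208), and Prkca, protein kinase C alpha, at 0.187 (0.163 to 0.213). Hk2 was the only member of 11 glycolysis genes at 10 CPM or more to pass 2-fold, against 18.2% of all genes at least 2-fold lower. It had 21.2 CPM in low-count barcodes and 141 CPM in cells. The other glycolytic enzymes had ratios from 0.601 for Hk1, hexokinase 1, to 1.27 for Tpi1, triosephosphate isomerase, with Gapdh at 0.826 (0.804 to 0.849) and Aldoa at 1.06 (1.03 to 1.09). Hk1 was named after its value was seen.

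Immediate early genes, whose transcripts are made in bursts after a stimulus and decay fast, were depleted as a group. Of 25 listed, 22 reached 10 CPM, all 22 had ratios below 1, 11 were at least 2-fold lower, against 18.2% of all genes, and the median log2 ratio was -1.0. Btg2, an antiproliferative factor, had 196 CPM (187 to 207) in low-count barcodes and 606 CPM (596 to 616) in cells, a ratio of 0.324 (0.307 to 0.342). The AP-1 components Fos and Jund had ratios of 0.615 (0.588 to 0.643) and 0.491 (0.464 to 0.520). Heat shock genes, which also answer stress, differed from these, with none of 8 past 2-fold and a median log2 ratio of 0.17. Hspe1, the co-chaperonin of mitochondria, had 966 CPM in low-count barcodes and 671 CPM in cells, a ratio of 1.44 (1.4 to 1.48).

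Transcripts translated at the endoplasmic reticulum were mixed. Among 23 chaperone and translocon genes, 4 were at least 2-fold lower and none 2-fold higher, against 18.2% and 0.451% of all genes, with a median log2 ratio of -0.24. Sec61g, the small gamma subunit of the translocon, had 1876 CPM in low-count barcodes and 1178 CPM in cells, a ratio of 1.59 (1.56 to 1.62), while Sec61b, the beta subunit, stood at 1.01 (0.974 to 1.04). Of 32 secreted and lysosomal protein genes 9 were at least 2-fold lower, against 18.2% of all genes, and the median log2 ratio was -0.63. Clu, the secreted chaperone clusterin, had 844 and 1320 CPM in low-count barcodes and in cells, a ratio of 0.640 (0.623 to 0.657), and Mif, a cytokine released without a signal peptide, stood at 1.34 (1.31 to 1.36). Of 4 class I antigen presentation genes 3 were at least 2-fold lower, H2-D1, H2-K1 and H2-T23, at ratios of 0.394, 0.427 and 0.485, and B2m, their shared light chain, stood at 0.798 (0.769 to 0.828). B2m had 2909 CPM in the macrophage gate and 266 CPM in the epithelial gate, and the part of the mix of cells was not tested here either.

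Cytoskeletal transcripts ranged widely. Of 30 members 12 had ratios above 1 and 18 below 1, against 30.1% of all genes above 1. At least 2-fold lower was 1, against 18.2% of all genes, and the median log2 ratio was -0.03. The lowest was Actn4, alpha-actinin 4, with 79.96 CPM in low-count barcodes and 190 CPM in cells, a ratio of 0.422 (0.387 to 0.458), and Actn1, Myh9, a nonmuscle myosin heavy chain, and Msn, moesin, had ratios of 0.538, 0.566 and 0.587. These 4 were named after their values were seen, and the members with the highest levels were nearer to or above the level in cells. Lgals1, galectin 1, had 40124 CPM in low-count barcodes and 28898 CPM in cells, a ratio of 1.39 (1.38 to 1.39). Tmsb4x and Tmsb10, thymosins that bind actin monomers, had ratios of 1.57 (1.56 to 1.59) and 1.31 (1.29 to 1.33). Actb, beta-actin, had 4890 CPM in low-count barcodes and 4981 CPM in cells, a ratio of 0.982 (0.971 to 0.993).

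Iron-handling transcripts, which bear on the series' topic of iron chelation, were mostly under the level in cells, as were most genes. Of 21 listed genes 10 reached 10 CPM, 9 of them with ratios below 1 and 1 above 1, against 30.1% of all genes above 1. At least 2-fold lower was 1, against 18.2% of all genes. The median log2 ratio was -0.63, against -0.34 over all genes. Fth1, ferritin heavy chain, had 8308 CPM (8244 to 8372) in low-count barcodes and 7900 CPM (7865 to 7935) in cells, a ratio of 1.05 (1.04 to 1.06). That value fell below 1 when each barcode counted equally, with a log2 ratio of -0.12. Ftl1, ferritin light chain, had 2740 CPM in low-count barcodes and 4334 CPM in cells, a ratio of 0.632 (0.623 to 0.642), and Trf, transferrin, had 542 and 815 CPM, a ratio of 0.666 (0.644 to 0.688). The level of Ftl1 differed between the 2 kinds of cell described further on, with 19795 CPM in the macrophage gate and 2821 CPM in the epithelial gate. What part the mix of cells had in its ratio was not tested.

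Among lineage genes, haemoglobin was higher in low-count barcodes and antigen-presenting cell genes were lower. Hbb-bs had 3962 CPM (3918 to 4006) in low-count barcodes and 2508 CPM (2488 to 2528) in cells, a ratio of 1.58 (1.56 to 1.60). Hbb-bt, Hba-a1 and Hba-a2, the other adult globins, had ratios of 1.58, 1.51 and 1.54, though the alpha globin genes are near copies and their split is uncertain. The direction rested on how cells were chosen. Red cells carry few genes, and 474 barcodes with 500 or more UMIs were left out of the cells for having under 200 genes; haemoglobin made up 83.4% of their UMIs. With them counted as cells the log2 ratio of summed haemoglobin was -1.44, against 0.64 without them. It was -0.33 when each barcode counted equally.

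Genes of the macrophage list had lower levels outside cells. Of 16 listed 12 reached 10 CPM, all 12 had ratios below 1, 8 were at least 2-fold lower, against 18.2% of all genes, and the median log2 ratio was -1.33. Apoe, a lipid carrier made by macrophages, had 1203 CPM (1178 to 1227) in low-count barcodes and 3086 CPM (3065 to 3108) in cells, a ratio of 0.390 (0.381 to 0.398). Lyz2, lysozyme, had a ratio of 0.533 (0.518 to 0.548), C1qb, a complement subunit, of 0.395 (0.372 to 0.418), and Pf4, a chemokine, of 0.872 (0.839 to 0.907). The dendritic cell list was lower still, but the 4 of its 12 genes at 10 CPM or more were all class II antigen presentation genes. The value therefore speaks for class II genes, and other dendritic genes could not be judged. Cd74, the class II invariant chain, had 403 CPM in low-count barcodes and 1630 CPM in cells, a ratio of 0.247 (0.238 to 0.256). The class II chains H2-Aa, H2-Eb1 and H2-Ab1 had ratios of 0.306, 0.261 and 0.212. All 4 members at 10 CPM or more were thus at least 2-fold lower, against 18.2% of all genes. Both lists fell further from the level in cells when each barcode counted equally, with medians of -2.41 for macrophage and -3.10 for dendritic genes, a weighting in which small cells count as much as large ones.

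The other lineage lists had few members at 10 CPM or more. Epithelial and mesothelial genes had a median log2 ratio of -0.27 over 7 members. Krt19 and Krt18, keratins, stood at 1.15 (1.11 to 1.2) and 1.19 (1.15 to 1.24), and Upk3b, a uroplakin of mesothelium, at 0.676 (0.638 to 0.715). Wt1, a transcription factor of mesothelium, had 180 CPM in low-count barcodes and 385 CPM in cells, a ratio of 0.467 (0.441 to 0.494), the only member past 2-fold. The neutrophil genes S100a8 and S100a9 had ratios of 1.07 (0.925 to 1.23) and 1.06 (0.892 to 1.25), whose intervals include 1. They were the only 2 of 13 listed neutrophil genes at 10 CPM or more. The summed list was lower outside cells, with 543 UMIs in low-count barcodes and 2163 in cells, a ratio of 0.796 (0.723 to 0.875). Of the 4 monocyte genes at 10 CPM or more, 3 were at least 2-fold lower, against 18.2% of all genes, and the median log2 ratio was -1.43. Jchain, the joining chain of secreted antibodies, had 21 UMIs in low-count barcodes and 519 in cells, a ratio of 0.128 (0.0787 to 0.198). Ahsg, a plasma protein made by liver, had 41.6 and 60.6 CPM, and Dcn, a fibroblast proteoglycan, had 226 and 317 CPM in low-count barcodes and in cells. No gene of the B, T, natural killer or endothelial lists reached 10 CPM.

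Because cells differ in their RNA content, the levels were also set beside those of 2 kinds of cell picked by marker UMIs. An epithelial gate took 3139 cells with at least 5 UMIs of 7 keratin, uroplakin and Wt1 genes, at 5 or more times the UMIs of the other gate's genes. A macrophage gate took 1118 cells by the same rule from 8 macrophage genes, and 33.9% of cells fell in neither. The epithelial gate held 18495062 UMIs and the macrophage gate 2062139. Malat1 was lower outside cells than in either kind, with 9861 CPM in low-count barcodes, against 67999 CPM in the epithelial gate and 22566 CPM in the macrophage gate. The same held for mt-Co1, with 1505 CPM in low-count barcodes, 9636 CPM in the epithelial gate and 4848 CPM in the macrophage gate. In all, 267 genes (4.63%) had less than 0.5 times the level of both gates, and 13 genes (0.226%) had more than 2 times the level of both. Pin4, Ube2c and Birc5 were among the 13, but so was Jchain, which was carried by cells in neither gate. Jchain had 4 UMIs in the epithelial gate, 1 in the macrophage gate and 519 in all cells. Its log2 ratio of low-count barcodes over all cells was -2.96.

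Genes carried mostly by 1 of the gates had, by the median, a level outside cells between those of the gates. They were chosen for a gap of at least 10-fold between the gates, so this order was largely set by the choice. Levels in the gates also include free RNA, which was not corrected for, so the ratios to the gate with the lower level are not independent of it. The 137 genes at least 10-fold higher in the macrophage gate included some of that gate's own genes. Their level in low-count barcodes had a median of 0.0598 times the level of that gate, with 80% of genes between 0.0344 and 0.110. Against the epithelial gate the median was 7.60 times its level. For 82 genes at least 10-fold higher in the epithelial gate, which include some of the gate's own genes, the median was 0.448 times the level of that gate, with 80% between 0.200 and 0.847, and 5.47 times the level of the macrophage gate. Lgals2, a galectin, had 482 CPM in low-count barcodes and 477 CPM in the epithelial gate. Adam33, a membrane protease, had 5.11 CPM in low-count barcodes and 58.8 CPM in that gate. These 2 genes were named after their values were seen. How many cells of each kind gave RNA, and how much each gave, cannot be told apart.

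Genes at like levels in both gates were taken apart, since their level depends little on the mix of these 2 kinds of cell. Of 2121 genes within 1.5-fold between the gates, 6 were at least 2-fold higher and 255, or 12.0%, at least 2-fold lower outside cells. Over all genes these shares were 0.451% and 18.2%. The median log2 ratio of the 2121 genes was -0.23. The lowest at a mean of 50 CPM or more were Hk2 and Slc3a2, an amino acid transporter subunit. Slc3a2 had 35.4 CPM in low-count barcodes, 184 CPM in the epithelial gate and 143 CPM in the macrophage gate. Also low were Luc7l2 and Rbm25, splicing factors, Ahnak, a giant scaffold protein, and Klf6 and Atf3, immediate early transcription factors. Luc7l2 had 26.3 CPM in low-count barcodes, 90.1 CPM in the epithelial gate and 82.4 CPM in the macrophage gate. These genes, Hk2 apart, were named after their values were seen.

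Longer transcripts had lower ratios, and of the 6 properties examined coding length and transcript length went most closely with the ratio. Over 5749 genes with an annotated transcript, mitochondrially encoded genes apart, Spearman's rho between the ratio and length was -0.58. It was -0.60 for coding length (5616 genes), -0.35 for the length of the 3' untranslated region (5615 genes), -0.40 for the genomic span, -0.27 for the longest run of A and -0.10 for GC content. These correlations run across genes of the same 2 pools and are given without a p-value, since genes are not independent replicates. The quintile of shortest transcripts, of 183 to 1363 bases, had a median log2 ratio of 0.21, and 71.0% of them had ratios above 1. The quintile of longest transcripts, of 4660 bases or more, had a median of -0.95, and 4.96% had ratios above 1. At least 2-fold lower were 2.52% of the shortest, then 6.61%, 13.1%, 22.2% and 45.7% of the longest.

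**Figure D4:**
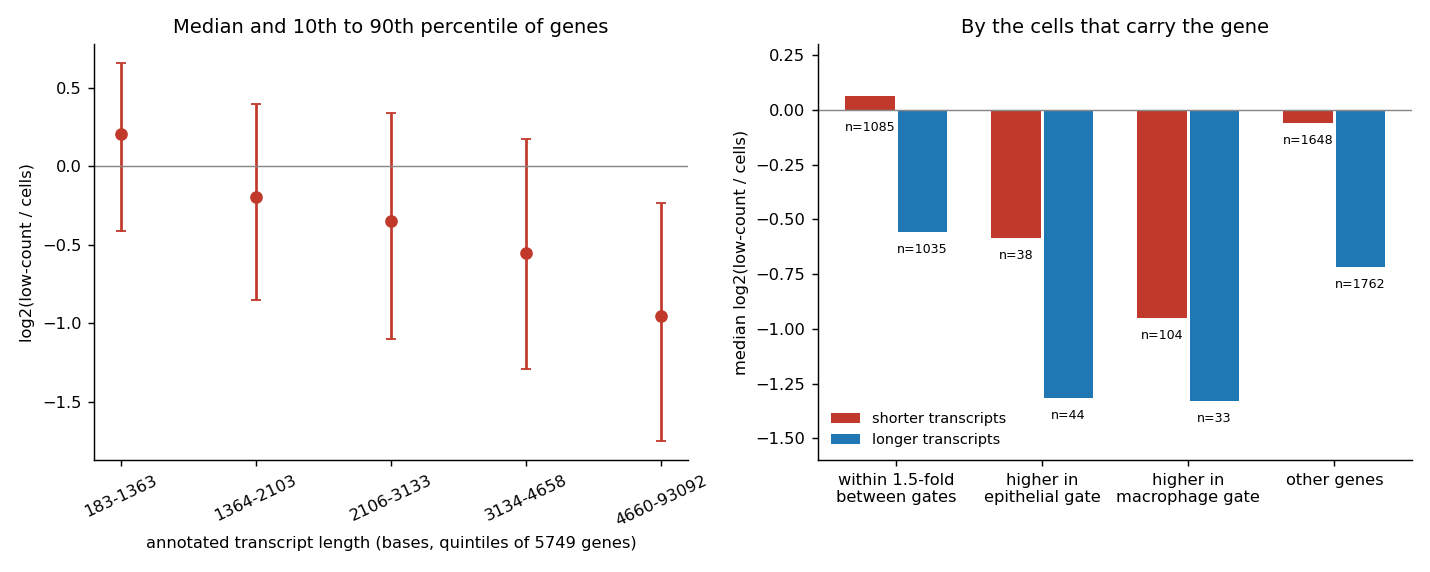
Left, the median log2 ratio of low-count barcodes over cells (points) with the 10th to 90th percentile of genes (bars) by quintile of annotated transcript length in bases; right, the median log2 ratio of shorter and longer transcripts, split at 2607 bases, for genes within 1.5-fold between the gates, genes at least 10-fold higher in 1 gate, and the rest. Medians run from 0.21 to -0.95 over the quintiles, and longer transcripts have the lower median in each class.

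The relation with length held within each class of genes. Split at 2607 bases, genes within 1.5-fold between the gates had medians of -0.56 for longer transcripts (1035 genes) and 0.06 for shorter ones (1085 genes). Epithelial-gate genes had medians of -1.31 and -0.59, and macrophage-gate genes of -1.33 and -0.95, for longer and shorter transcripts. The 15 most enriched genes had a median length of 858 bases, and the 8 most depleted with a length, mitochondrially encoded genes apart, of 6248 bases. What sets this relation was not tested.

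Some groups stood apart from genes of like annotated length. Length here is that of the longest annotated transcript, and which transcript the cells made is not known. Rps15a was placed at 5179 bases, with a coding length of 390 bases. A gene placed in too long a quintile is set against too low a median. Set against the median of the length quintile each gene belongs to, 18 of 19 cell cycle genes, 7 of 8 heat shock genes and 63 of 78 nuclear-encoded respiratory genes lay above it. None of the 4 nuclear-retained lncRNAs, 12 macrophage, 4 dendritic or 4 class I genes did, and 2 of 22 immediate early genes did. Ribosomal protein genes, with 55 of 82 above, had a median log2 of 0.26 against 0.21 for the quintile of the shortest transcripts.

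Actb stood out for a different reason. Its dispersion over low-count barcodes was 1.58, second to Hbb-bs at 1.68, and its count followed the bases of the barcode. Barcodes have 16 bases, and both pools averaged 8.10 G or C bases. In low-count barcodes Actb had 13127 CPM in the 7778 barcodes with at most 6 G or C bases and 1226 CPM in the 9758 with at least 10, a 10.7-fold difference (10.2 to 11.3). Between them its level fell step by step, with 7929 CPM at 7 G or C bases, 3355 CPM at 8 and 1635 CPM at 9. Cells showed an 8.16-fold difference for Actb. Rpl37a did not move in this way, with 13221 CPM in low-count barcodes at 5 G or C bases and 13293 CPM at 11. Within 1 class of barcodes by G or C bases, the dispersion of Actb was 1.01 to 1.21.

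**Figure D5:**
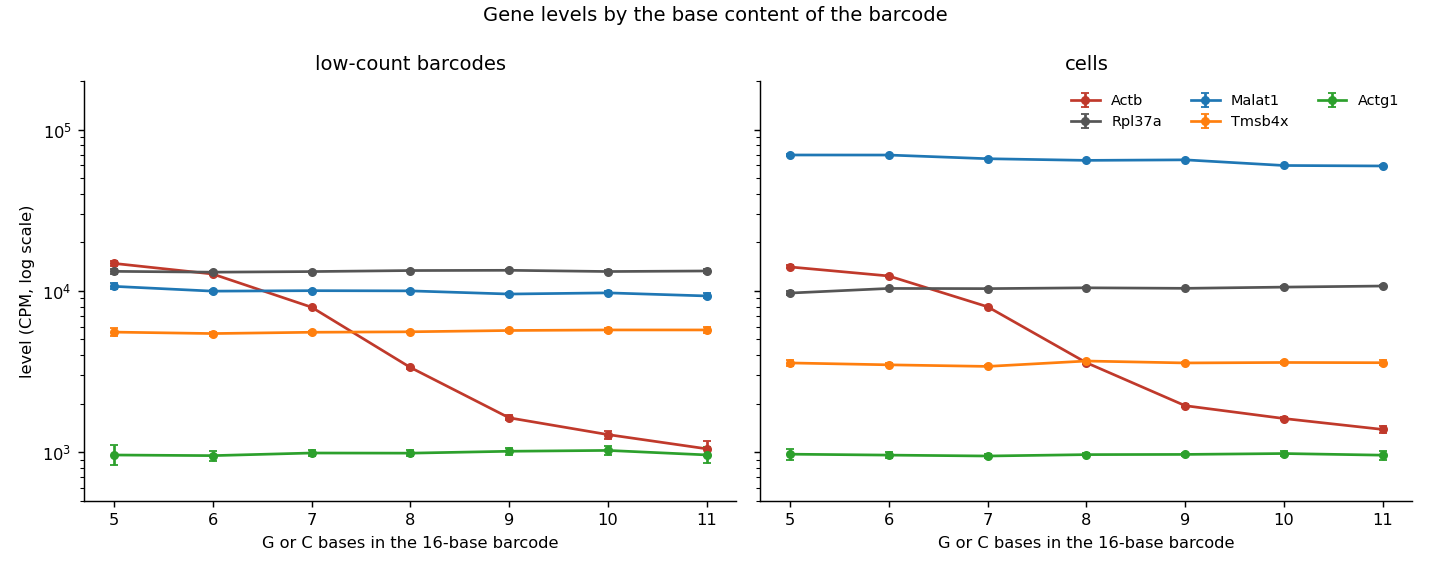
Level (CPM, log scale) of 5 genes against the number of G or C bases in the 16-base barcode, in low-count barcodes (left) and cells (right), with exact Poisson 95% intervals, most of them smaller than the points. Actb falls from 14811 to 1050 CPM across low-count barcodes of 5 to 11 G or C bases, and Rpl37a, Malat1, Tmsb4x and Actg1 stay nearly level.

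Few genes shared this pattern. Of 1637 genes at 50 CPM or more in low-count barcodes, 26 were at least 1.5-fold higher in barcodes with few G or C bases and 9 at least 1.5-fold lower, and in cells 47 of 1968 were higher and 1 lower. Slc39a1, a zinc transporter, showed a 14.4-fold difference in low-count barcodes and a 12.2-fold difference in cells. Abhd2, a lipid hydrolase, showed 9.59-fold and 11.5-fold differences in low-count barcodes and in cells. The ratio of low-count barcodes over cells for Actb was 1.03 (1.01 to 1.05) in barcodes with at most 6 such bases and 0.787 (0.744 to 0.831) in those with at least 10, so its direction turned with the barcodes used. These genes were named after their values were seen.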

How the data were processed

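UMI counts per gene and barcode were used as deposited by the authors for 1 ascites library from a 10x Genomics assay, per the labels. The matrix held 27998 genes and 737280 barcodes, 478746 of them empty, and no cells had been selected. For the aligner, counter and genome build the entry is: not given in the sources used here. Bulk counts in another deposited table fill 8 columns of per-sample values that match no label, and were not used. UMIs were summed over low-count barcodes and over cells. CPM carry exact Poisson, shares exact Clopper-Pearson and ratios exact conditional binomial 95% intervals, for counting error only. With 1 library no test was made, and a gene counts as higher or lower past 2-fold. A count of 0 would allow 3 counts, or 0.383 CPM in low-count barcodes and 0.121 CPM in cells. Levels in cells were not corrected for free RNA, and doublets were neither called nor removed.

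The members, the 34 gene lists and the rule for named genes were chosen with earlier results of these data known. The rule took the 15 genes at each end with a mean of at least 50 CPM, the 4 highest members of each list at 10 CPM or more, and all mitochondrially encoded and haemoglobin genes. Lengths are those of the longest basic transcript in GENCODE release M21, where 27645 gene identifiers were found and 353 were not. Ratios, intervals and dispersion were tested on simulated data. Alternatives changed the UMI range, the cell filter, the weighting and the level floor. Barcodes with 8 G or C bases, and low-count barcodes without those rich in mitochondrial or haemoglobin UMIs, were added after seeing the data. Python 3.11.15, numpy 2.4.6, scipy 1.17.1, pandas 2.3.3 and matplotlib 3.10.9 were used.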

Additional observations from a re-analysis of the deposited data

Results flagged for a closer look

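Barcodes outside both pools held signal that the comparison did not use. In the 474 barcodes with at least 500 UMIs and under 200 genes, haemoglobin made up 83.4% (83.3 to 83.5%) of UMIs, against 0.494% in cells. In the 520 barcodes with at least 500 UMIs and over 15% mitochondrial UMIs, Malat1 made up 11.6% (11.5 to 11.7%), against 0.986% in low-count barcodes and 6.48% in cells, and ribosomal protein transcripts made up 12.1%, against 31.6% in cells. In the 4319 barcodes with over 200 and under 500 UMIs, haemoglobin made up 2.75% (2.72 to 2.78%), against 0.769% in low-count barcodes and 0.494% in cells.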

How the results depend on the processing

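No paired analysis was possible because there was 1 ascites library, which also left no replicate to leave out. Main values stand in the report, and the cause of each move was not tested. The 26 higher genes became 142 with barcodes of 50 to 99 UMIs, 208 with 1 to 50, 61 with over 200 to 400, 56 with each barcode counting equally, 7 at a mean of 50 CPM, 307 with no level floor and 43 with 8 G or C bases. The 1050 lower genes became 488 with 1 to 50 UMIs, 189 at 50 CPM and 4483 with no floor.

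For barcodes of 50 to 99, 1 to 50, 100 to under 150, 150 to 200 and over 200 to 400 UMIs in turn, the log2 ratio of the mitochondrially encoded share was -2.37, 0.20 (the direction turned), -2.51, -2.23 and -1.37. That of nuclear lncRNA was -2.55, -0.54, -2.74, -2.66 and -1.95, that of ribosomal protein 0.28, 0.0076, 0.30, 0.28 and 0.24, and that of haemoglobin 0.59, 1.43, 0.61, 0.79 and 1.89. Without the mitochondrial limit they were -2.64, -2.76, 0.32 and 0.66, in the same order of groups. Without the gene floor they were -2.43, -2.70, 0.32 and -1.44, and with equal weight per barcode -2.38, -2.66, 0.28 and -0.33, so that haemoglobin turned under both. Without mitochondrial and haemoglobin UMIs in the totals they were -2.49, -2.76, 0.26 and 0.60. Cells of at least 1000 UMIs moved ribosomal protein to 0.30 and haemoglobin to 0.68, and 8 G or C bases moved nuclear lncRNA to -2.70, ribosomal protein to 0.29 and haemoglobin to 0.77. The mitochondrial limit on low-count barcodes gave -2.48 for mitochondrial transcripts, and leaving out low-count barcodes rich in mitochondrial or haemoglobin UMIs gave -2.51 for these and 0.60 for haemoglobin.

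Single genes turned as well. Fth1 was at -0.065 with 1 to 50 UMIs and -0.12 with equal weight, Hbb-bs at -1.41 without the gene floor and -0.29 with equal weight, mt-Co1 at 0.19 with 1 to 50 UMIs, and the median of ribosomal protein genes at -0.0076 with 1 to 50 UMIs. Malat1, Neat1, Cd74, Pin4 and Birc5, and the medians of the cell cycle, immediate early, macrophage, dendritic, class I and nuclear respiratory lists, kept their direction under all 13 alternatives, some only narrowly. With over 200 to 400 UMIs the class I median was -0.02, the dendritic median -0.41, the macrophage median -0.54 and Cd74 -0.36. The depth limits precision for genes near 10 CPM, where 3 counts are 0.383 CPM in low-count barcodes.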

Other observations

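Values are also given for the minor peaks in barcode size. The 2411 barcodes of 240 to under 300 UMIs held 0.958% mitochondrially encoded, 1.22% Malat1, 1.2% haemoglobin and 37.9% ribosomal protein UMIs, against 0.644%, 0.986%, 0.769% and 38.7% in low-count barcodes. The 4612 barcodes of 40 to 79 UMIs held 0.688%, 1.15%, 0.792% and 38.1% of these groups, in the same order. Actb counts of 4 or more were found in 1434 low-count barcodes, where sampling from the summed profile gives 283.7.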
